A study of Sus scrofa with 4 samples.

Results

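The genes described here are the proteasome subunits and regulators that were measured in the liver of piglets fed with or without added L-carnitine. Members were the genes with a probe set of exactly 1 annotated symbol that begins with PSMA, PSMB, PSMC, PSMD, PSME, PSMF or PSMG, or is POMP, VCP, ADRM1, UFD1 or NPLOC4. The rule found 42 genes with 50 probe sets, out of 6765 genes and 23999 probe sets, and each gene is given by the probe set with the highest mean log2 signal. By role, 14 belong to the 20S core, 15 to the 19S cap, 4 to the immunoproteasome with its activator PA28, 4 are assembly chaperones and 5 are other regulators. Of 54 pig genes whose symbols fit the rule, 12 were not analysed here, namely PSMA8, PSMB9, PSMB11, PSMC3IP, PSMC4, PSMD7, PSMD9, PSMG2, PSMG4, POMP, ADRM1 and NPLOC4.

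The carnitine group received a basal diet with 500 mg of L-carnitine added per kg for 21 days, and the control group the same basal diet, low in native carnitine, without the addition. All pigs were males of the cross (German Landrace x Large White) x Pietrain, 7 weeks old when the liver was taken 2.5 h after the last meal. Each diet had 8 pigs, whose liver RNA was combined into 2 pools of 4 pigs, and each pool was hybridized to 1 single-colour Affymetrix porcine array, so that pools and not pigs are the unit of replication. The values are MAS5 signals, the array software's summary of the probes for a transcript, on a linear scale that the authors had brought to a common level. The median signal was 109 and 113 for carnitine pools 1 and 2, and 114 for either control pool.

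The 26S proteasome is the protease that degrades most ubiquitin-tagged proteins of the cytosol and nucleus. Its barrel, the 20S core, has outer rings of alpha subunits that gate the entry and inner rings of beta subunits, of which PSMB5, PSMB6 and PSMB7 carry the proteolytic sites. The 19S cap binds the tagged protein, removes the ubiquitin chain and threads the unfolded chain into the barrel by a ring of ATPases. Under interferon the catalytic subunits can be exchanged for PSMB8, PSMB9 and PSMB10, which gives the immunoproteasome that favours peptides for antigen presentation. In liver the system turns over enzymes and secretory proteins that fail quality control.

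Proteasome transcripts tended to give higher signals in carnitine pools, by small amounts. Of the 42 genes, 33 had a log2 fold change (mean log2 signal of carnitine minus control pools, with its standard error as SE) above 0, against 49.1% of all genes at their brightest probe set and 50.2% of the 5039 genes above the median signal, where all members lie. The median over the members was 0.15, with quartiles of 0.058 and 0.37, while the median was -0.0089 over all genes and -0.018 over all probe sets. Both carnitine pools lay above both control pools for 20 members (21.5% of all genes, 23.7% of those above the median signal) and below both for 4 (21.0% and 21.6%), and the pools overlapped for 18.

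No member passed the test. In limma, with p-values adjusted over 23999 probe sets by the Benjamini-Hochberg method, 0 of the 42 members had an adjusted p under 0.05 (0.00417% of all probe sets), and the values ran from 0.399 to 0.984. At an unadjusted p under 0.05, 3 members, or 7.14%, were higher and 0 lower. The shares were 6.56% higher and 3.99% lower over all genes, and 7.98% and 4.37% over genes above the median signal, so that the members' count is near the background. These 3 were PSMD14, PSMD1 and PSMD4, all subunits of the 19S cap. A single member, PSMD14, differed by 2-fold or more (4.76% of all genes for higher and 4.17% for lower signals, and 2.32% and 1.15% of those above the median signal). For 35 of the 42 the 95% confidence interval of the log2 fold change lay within 2-fold either way, which was the case for 48.1% of all genes and 64.3% of those above the median signal. The labels give the pools as biological replicates. SEs, intervals and p-values from limma combine the spread between 2 pools per diet with a variance estimated from other probe sets of like signal. An SE can therefore differ from what the pools of a gene alone would give.

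Control probe sets for RNA quality and labelling gave mixed values between the diets. For GAPDH the signal at the 3' end over that at the 5' end was 18.7 and 16.1 with carnitine, against 12.5 and 11.6 in control pools, for the first of 3 sets. For the second it was 43.1 and 22.9 against 20.1 and 19.4, and for the third it was 9.65 and 11.1 against 10.2 and 9.04, which overlapped. Of the actin sets, 1 gave 157 and 136 against 91.2 and 86.7 and the other 0.33 and 1.05 against 0.37 and 0.22, with overlap. EF1A gave 23.4 and 29.6 against 57.9 and 18.2, which also overlapped. The dap and thr sets for added bacterial RNA all had lower ratios with carnitine, such as 16.6 and 9.54 against 21.9 and 22.8 for a dap set. Their part in the proteasome values was not tested.

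**Figure D1:**
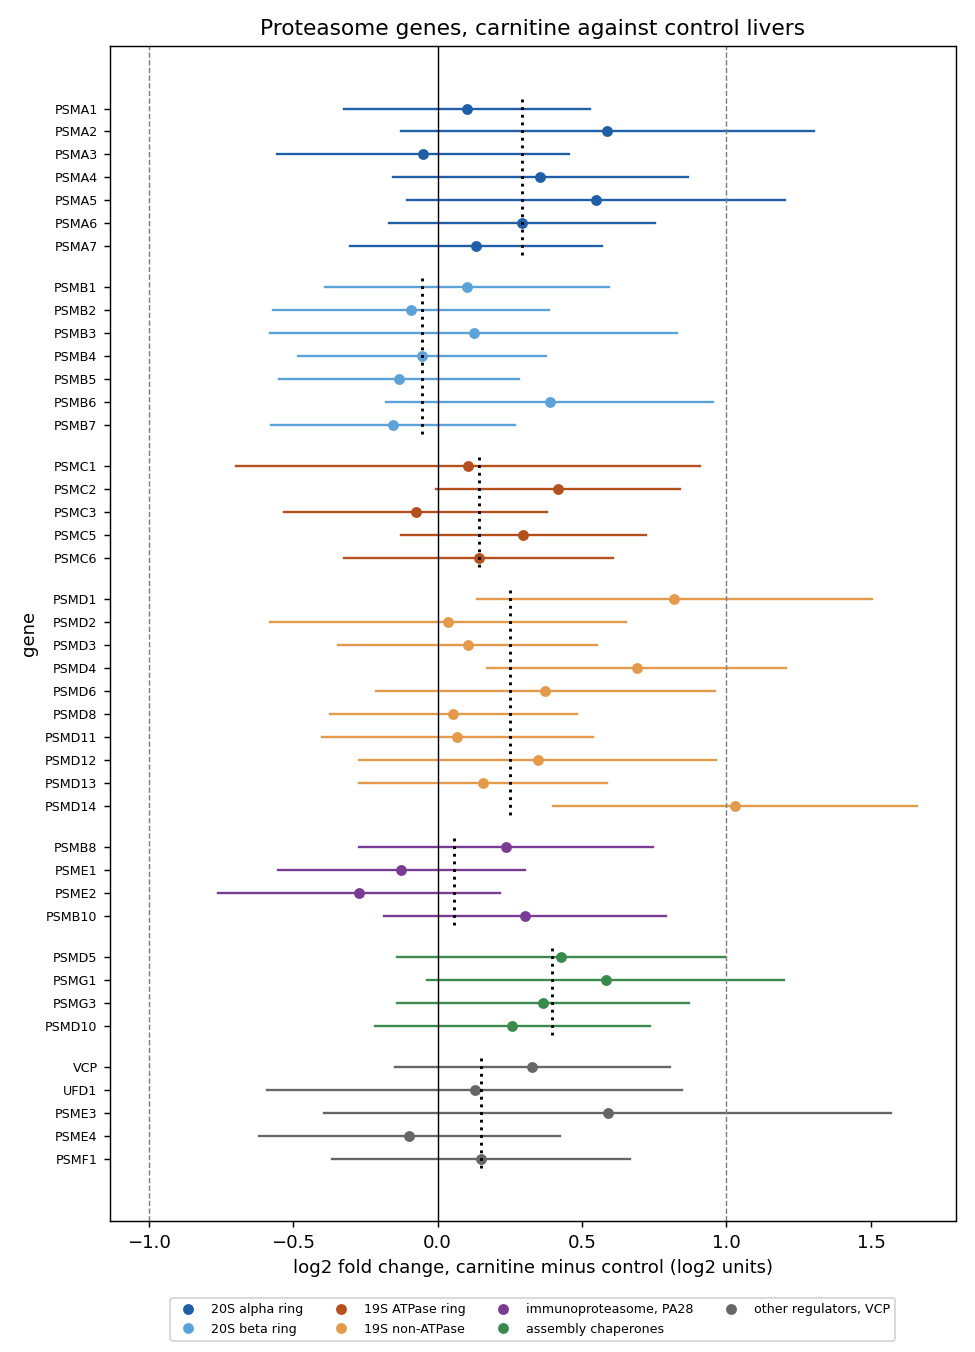
Log2 fold change (horizontal axis, log2 units, carnitine minus control) of the 42 members (vertical axis), with lines for the 95% confidence interval from limma, colours for the class, dotted lines for the class medians and dashed lines at 2-fold. PSMD14, PSMD1 and PSMD4 have intervals above 0, all 7 intervals of the 20S beta ring lie within 2-fold, and the 4 assembly chaperones lie to the right of 0.

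PSMD14, the deubiquitinating subunit that cuts the ubiquitin chain off a substrate, had the highest fold change of the members. Its probe set gave signals of 1599 and 2222 in carnitine pools, against 760.0 and 1122 in control pools. The carnitine pools were thus clear of the control pools, with means of 1910.0 ± 440.5 against 941 ± 256 (SD, n = 2 pools each). The log2 fold change was 1.03 (SE 0.27, 95% interval 0.40 to 1.66, adjusted p = 0.399 from limma).

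PSMD1, the largest scaffold subunit of the cap, had signals of 1739 and 2208 in carnitine pools, against 1457 and 846 in control pools. The groups did not overlap, but the gap between the control pools was wide. The log2 fold change was 0.82 (SE 0.29, adjusted p = 0.495 from limma). A dimmer probe set of PSMD1 gave 852 and 1077 against 514 and 603, a log2 fold change of 0.78 with a smaller SE of 0.23 (adjusted p = 0.431).

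PSMD4, a receptor of the cap for ubiquitin chains, had signals of 1118 and 1485 in carnitine pools, against 816 and 782 in control pools. The control pools were close together, and both carnitine pools lay above them. The log2 fold change was 0.69 (SE 0.22, adjusted p = 0.461 from limma). PSMD2, a scaffold subunit that also binds ubiquitin-like proteins, showed no such separation, with 762 and 861 in carnitine pools and 982 and 636 in control pools (0.036 on the log2 scale, SE 0.26).

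All 10 measured non-ATPase subunits of the cap had log2 fold changes above 0 at their brightest probe set, from 0.036 to 1.03, with a median of 0.25. Those of PSMD2, PSMD3, PSMD8 and PSMD11 changed sign when certain single pools were left out. The dimmer probe set of PSMD1 gave 0.78, while those of PSMD11, at low signals, gave -1.17 and -2.53. For 5 of the 10 subunits both carnitine pools were above both control pools, namely PSMD1, PSMD4, PSMD6, PSMD13 and PSMD14. Over all genes the shares were 49.1% above 0 and 21.5% with both carnitine pools above both control pools. PSMD6, a subunit of the lid, had 861 and 1295 in carnitine pools and 791 and 841 in control pools (0.37 on the log2 scale, SE 0.25). PSMD12, another lid subunit, reached 0.35 (SE 0.26) with overlapping pools, at 1596 and 1205 against 1329 and 895. The remaining lid and scaffold subunits were nearly level, with values of 0.10 for PSMD3, 0.055 for PSMD8, 0.068 for PSMD11 and 0.16 for PSMD13.

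Among the 5 measured ATPases of the cap, which pull the substrate into the core, the median log2 fold change was 0.14. PSMC2 had signals of 3250 and 3409 in carnitine pools, against 2611 and 2382 in control pools. Its pools were tight and separate, with a log2 fold change of 0.42 (SE 0.18, adjusted p = 0.585 from limma). Its dimmer probe sets lay on the same side, at 0.29 and 0.80, and for each of them both carnitine pools were above both control pools. PSMC5 gave 3468 and 3112 against 2632 and 2715 (0.30 on the log2 scale, SE 0.18). The pools of PSMC1 and PSMC6 overlapped between the diets, at 0.10 and 0.14. PSMC3 was the only measured cap subunit with a value below 0, at 2783 and 3220 against 2912 and 3419 (-0.076, SE 0.19). Over the whole cap the median was 0.16, and 14 of 15 members were above 0 (49.1% of all genes).

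The rings of the 20S core showed unequal values. Of the 7 alpha subunits, 6 had a log2 fold change above 0 and 5 had both carnitine pools above both control pools, with a median of 0.29. Of the 7 constitutive beta subunits, 3 were above 0, none had both carnitine pools above both control pools, and the median was -0.053. Over all genes 49.1% were above 0 and 21.5% had both carnitine pools above both control pools. The difference between the rings was not tested, since the subunits of a ring share their 4 arrays.

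PSMA2 had the largest value of the alpha ring, with 913 and 1331 in carnitine pools and 576 and 934 in control pools (0.59 on the log2 scale, SE 0.30). Control pool 2 lay just above carnitine pool 1, so that the groups overlapped, and the value was 0.24 with control pool 1 left out and 0.94 with control pool 2 left out. PSMA5 gave 437 and 469 against 255 and 376 (0.55 on the log2 scale, SE 0.28), with the carnitine pools on top. PSMA4 gave 1080.5 and 1418 against 1006 and 929 (0.36, SE 0.22). PSMA6 followed with 0.29, PSMA7 with 0.13 and PSMA1 with 0.10, all without overlap, and PSMA3 was at -0.051 with overlapping pools.

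In the beta ring, PSMB6, the caspase-like catalytic subunit, had signals of 2322 and 2732 in carnitine pools and 1579 and 2348 in control pools. Control pool 1 alone was far below the other pools, and the log2 fold change was 0.39 (SE 0.24), or 0.10 when that pool was left out. The other catalytic subunits were slightly lower in carnitine pools. PSMB5, which carries the chymotrypsin-like site, gave 3132 and 3150 against 3338 and 3561 (-0.13 on the log2 scale, SE 0.18). PSMB7, which carries the trypsin-like site, gave 5257 and 5210 against 5507 and 6155 (-0.15 on the log2 scale, SE 0.18). Neither passed (adjusted p = 0.869 and 0.851 from limma). The 95% interval ran from -0.55 to 0.28 for PSMB5 and from -0.58 to 0.27 for PSMB7. The structural subunits PSMB1, PSMB2, PSMB3 and PSMB4 were at 0.10, -0.092, 0.12 and -0.053, and each had overlapping pools.

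**Figure D2:**
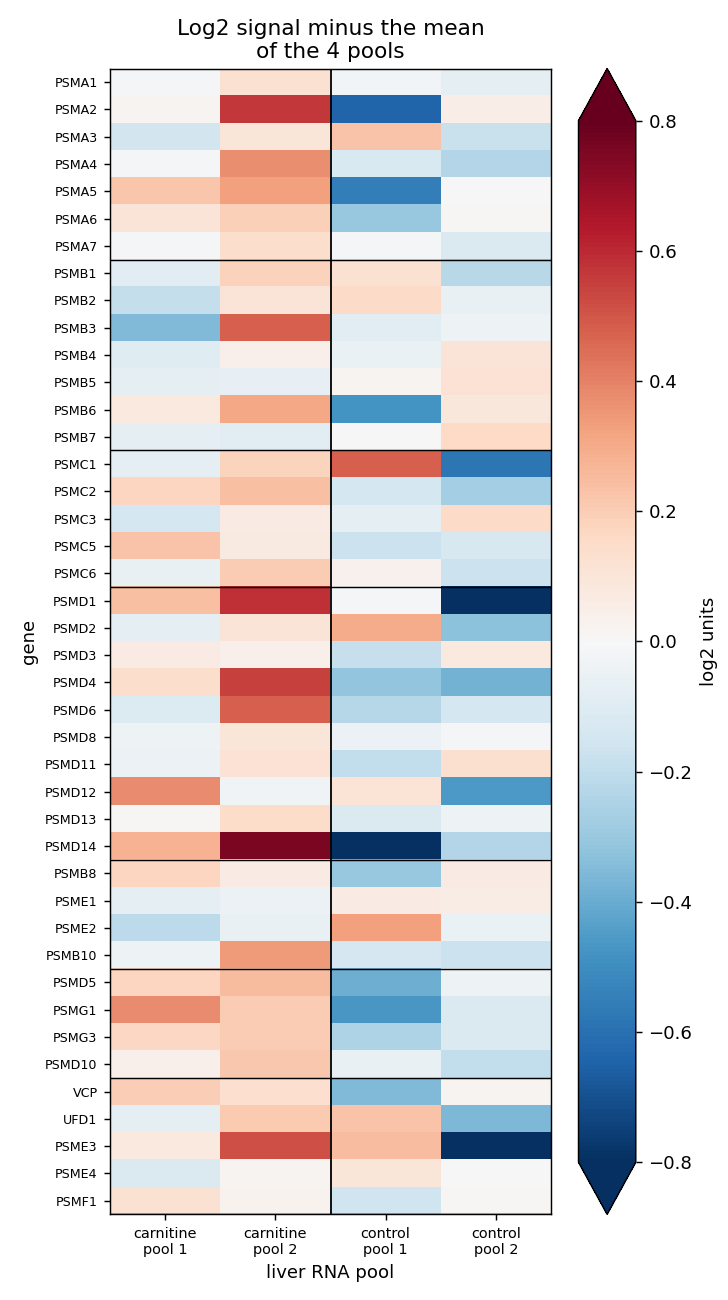
Log2 signal of each member (rows, in the order of the classes, with lines between them) in the 4 liver RNA pools (columns), as the difference from the mean of that gene over the 4 pools, with red for higher and blue for lower signals and the ends of the colour scale for differences at or beyond it. Carnitine pool 2 is the highest pool for 22 of the 42 genes (27.7% of all genes). Control pools 1 and 2 are each the lowest for 7 of the 15 cap subunits, and for 3 and 1 of the 4 assembly chaperones. Of all 6765 genes they are the lowest for 1859 and 1783.

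The measured immunoproteasome subunits and their activator PA28 lay on opposite sides of 0. PSMB8, the inducible counterpart of PSMB5, had signals of 1119 and 1042 in carnitine pools, against 807 and 1041 in control pools. Carnitine pool 2 and control pool 2 were practically equal, so that the log2 fold change of 0.24 (SE 0.22) rested on control pool 1, and it was 0.052 without that pool. PSMB10, the counterpart of PSMB7, had 1569 and 2049 in carnitine pools, against 1472 and 1436 in control pools (0.30 on the log2 scale, SE 0.21). Here carnitine pool 2 stood above the others, and the value was 0.11 without it.

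PSME1 and PSME2, which form the PA28 ring that opens the core in interferon-treated cells, were lower in carnitine pools. PSME1 gave 1524 and 1561 against 1685 and 1679, with very little spread in either group. Its log2 fold change was -0.12, with an SE of 0.18 in limma. A one-factor analysis of variance, which uses the pools of the gene alone, gave an SE of 0.017. PSME2 gave 2213 and 2456 against 3215 and 2464 (-0.27 on the log2 scale, SE 0.21), where control pool 2 was nearly level with carnitine pool 2. None of the 4 genes passed, with adjusted p from 0.722 to 0.884 in limma, and the median of the class was 0.055, or -0.016 without carnitine pool 2 and -0.014 without control pool 1.

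Within each array the inducible catalytic subunits were set against the constitutive ones. The mean log2 signal of PSMB8 and PSMB10 minus that of PSMB5 and PSMB7 was -1.61 and -1.47 in carnitine pools and -1.98 and -1.94 in control pools. PSMB6 was left out because its counterpart PSMB9 was not analysed. The log2 fold change of PSMB6, 0.39, was opposite in sign to those of PSMB5 and PSMB7, so the within-array value covers only these 2 pairs. The absolute level of the within-array value depends on the probes, and only its difference between diets can be read. It was higher by 0.41 in carnitine pools, larger than the gap between pools of a diet, and the exact two-sided permutation test gave p = 0.333, the smallest that 2 pools against 2 allow. For PSMB8 minus PSMB5 alone the difference was 0.37, and for PSMB10 minus PSMB7 it was 0.46. It ranged from 0.34 to 0.49 when each pool was left out in turn.

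Leukocytes express immunoproteasome subunits strongly, and their marker signals were read beside these values. Of 14 listed markers of T and NK cells 9 were measured, 5 of them below the median signal, and their summed signal was 1906 and 1554 in carnitine pools and 2763 and 1991 in control pools. For 8 of 12 Kupffer cell and macrophage markers the sums were 11918 and 13041 against 13600 and 12745, which overlapped. CD5L alone gave 6867 and 8692 against 7501 and 7230 of these sums. Both carnitine pools lay below both control pools for 3 of the 8 markers and above them for 1. Among the 9 T and NK cell markers these counts were also 3 and 1. Of 4 measured B and plasma cell markers 2 had both carnitine pools below both control pools, and the sums were 1905 and 2213 against 3082 and 1996. All 12 hepatocyte markers were measured, none below the median signal, with sums of 386213 and 352588 against 414733 and 382932. Of these 12, 5 had both carnitine pools below both control pools and 2 above. Over all genes the shares were 21.0% below and 21.5% above. Markers of endothelial, stellate and bile duct cells had their highest sums in control pool 2, and 3 of 4 measured erythroid markers had both carnitine pools below both control pools. The part of leukocyte content in the immunoproteasome values was not tested. In whole liver, fewer cells of a type and less RNA per cell cannot be told apart.

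The list of interferon response and antigen presentation genes, which do not belong to the proteasome, had a median of 0.23 over 14 of 18 measured genes, with 10 above 0. At an unadjusted p under 0.05, 3 were higher and 0 lower, and 0 passed after adjustment in limma. Over all genes 49.1% were above 0, and 6.56% were higher and 3.99% lower at that p. TAP1, which carries proteasome products into the endoplasmic reticulum, had 1577 and 1766 in carnitine pools and 1387 and 736 in control pools (0.72 on the log2 scale, SE 0.31, adjusted p = 0.577). MX1 and GBP1, which interferons induce, were at 0.62 and 0.48, while OAS1, also induced by interferons, was at -0.65 (SE 0.32). B2M, the light chain of class I molecules, was level at 0.014 (SE 0.20).

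**Figure D3:**
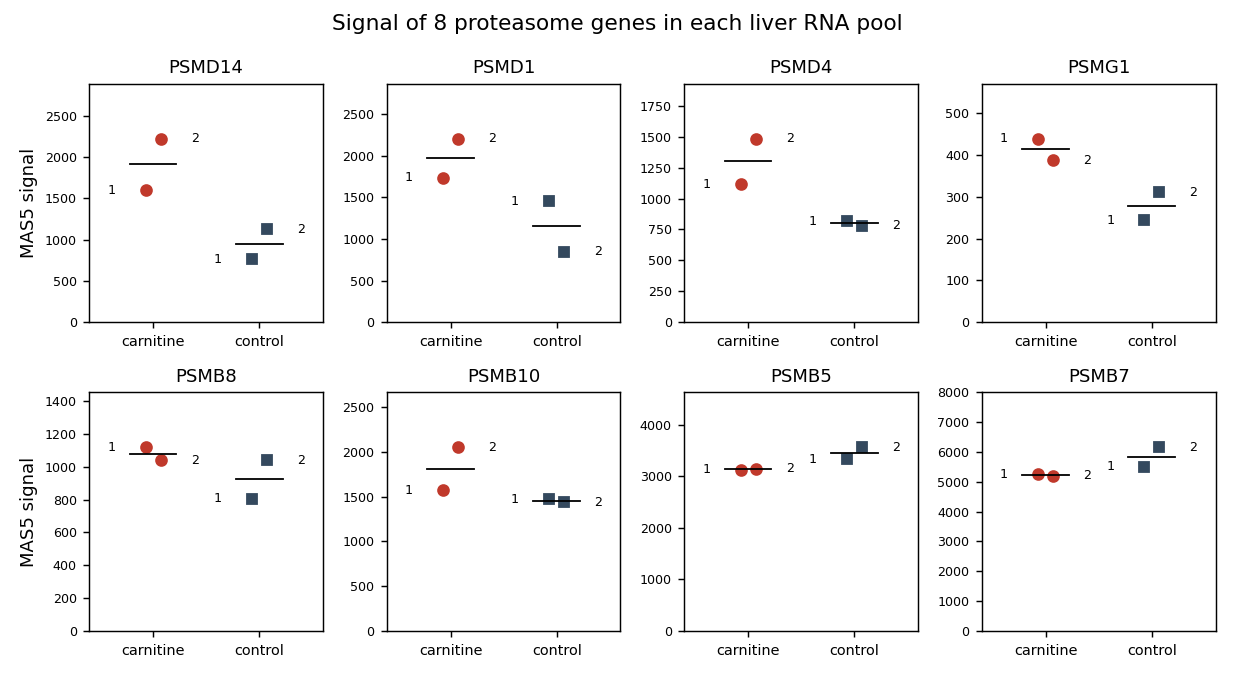
MAS5 signal (vertical axes, linear from 0) of 8 proteasome genes in the carnitine (red circles) and control pools (dark squares), with the pool number beside each point and a line at the mean of a diet. The carnitine pools lie above the control pools for PSMD14, PSMD1, PSMD4, PSMG1 and PSMB10, below them for PSMB5 and PSMB7, and carnitine pool 2 of PSMB8 is level with control pool 2.

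The 4 measured assembly chaperones, which guide the building of the core and the cap and then leave or are degraded, all had their carnitine pools above their control pools. Their median log2 fold change was 0.40, from 0.26 to 0.58. Over all genes 21.5% had both carnitine pools above both control pools. PSMG1, a chaperone of the alpha ring, had 439.5 and 388 in carnitine pools and 244 and 311.5 in control pools (0.58 on the log2 scale, SE 0.26, adjusted p = 0.597 from limma). PSMG3, which acts early in the assembly of the core, had 631 and 647 against 475 and 519 (0.36, SE 0.21). PSMD5, which holds an ATPase of the cap during assembly, had 521 and 551 against 353 and 450 (0.43, SE 0.24). PSMD10, the oncoprotein gankyrin, had 949.9 and 1071 against 886 and 803.5 (0.26, SE 0.20). None of the 4 passed the adjusted p or an unadjusted p under 0.05.

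The other regulators had smaller or less certain values. VCP, the ATPase that extracts ubiquitin-tagged proteins from membranes and complexes before the proteasome degrades them, had 3662 and 3503 in carnitine pools and 2505 and 3249 in control pools. Both carnitine pools were higher, and the log2 fold change was 0.33 (SE 0.20, adjusted p = 0.696 from limma), with 0.14 when control pool 1 and 0.52 when control pool 2 was left out. A dimmer probe set of VCP had overlapping pools and a value of 0.17. UFD1, a cofactor of VCP, gave 277 and 339 against 344 and 229, with a log2 fold change of 0.13 (SE 0.31), whereas its dimmer probe set gave 217 and 350 against 181 and 174 and a value of 0.63.

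PSME3, a nuclear activator of the core, had 220.0 and 298 in carnitine pools and 247.5 and 117 in control pools. The signal of control pool 2 was far below the other pools, which overlapped, and the log2 fold change of 0.59 had the largest SE of all members, at 0.42, and was 0.049 when that pool was left out. PSME4, the activator PA200, was at 474 and 522 against 551 and 514 (-0.097 on the log2 scale, SE 0.22). PSMF1, a protein that binds and inhibits the core in vitro, was at 599 and 562 against 492 and 555 (0.15, SE 0.22). For the class the median was 0.15.

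Partners of the proteasome that are not members were read from 2 lists. Of 28 listed ubiquitin genes, shuttle factors, bound enzymes and transcription factors 10 were measured, with 8 above 0 and a median of 0.18. ZFAND2A, a stress-induced protein that binds the 19S cap, had 1409 and 1423 in carnitine pools, against 310.0 and 429 in control pools. Its log2 fold change was 1.96 (SE 0.24, adjusted p = 0.174 from limma), and the carnitine pools were nearly identical. UBE3A, a ubiquitin ligase found on proteasomes, gave 2953 and 3165 against 1723 and 2317 (0.61, SE 0.21, adjusted p = 0.487). TXNL1, a thioredoxin-like protein of the cap, gave 2825 and 2922 against 2224 and 2072 (0.42, SE 0.18). HUWE1, a large ubiquitin ligase, was at -0.25, and the ubiquitin genes UBB and RPS27A were at 0.026 and 0.24 with overlapping pools.

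Of 26 adaptors of VCP and genes of endoplasmic reticulum-associated degradation 13 were measured, with 9 above 0 and a median of 0.12. SELENOS, which recruits VCP to the membrane, gave 1567 and 1501 in carnitine pools and 1177 and 691 in control pools (0.77 on the log2 scale, SE 0.28, adjusted p = 0.509 from limma). PLAA, a ubiquitin-binding cofactor of VCP, gave 694 and 946 against 488 and 544 (0.65, SE 0.24, adjusted p = 0.517). UBXN6 was at -0.36 and NSFL1C, the cofactor p47, at 0.34. At an unadjusted p under 0.05 each of these lists had 2 genes higher and 0 lower, against 6.56% and 3.99% of all genes, of which 49.1% were above 0. No gene of either list passed after adjustment.

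The diet difference of the members has to be read beside the differences between the pools of a diet. Carnitine pool 2 was above carnitine pool 1 for 34 of the 42 members (51.5% of all genes), by a median of 0.15 on the log2 scale, which is as large as the median difference between the diets. Control pool 2 was above control pool 1 for 22 members (48.5% of all genes), with a median of 0.040. In such signed medians, gaps in opposite directions cancel. Taken without sign, the median gap of the members was 0.22 between control pools and 0.17 between carnitine pools. Over all genes it was 0.36 and 0.26. Carnitine pool 2 was the highest of the 4 pools for 22 members (27.7% of all genes), carnitine pool 1 for 6 (17.5%), control pool 1 for 8 (29.2%) and control pool 2 for 6 (25.6%).

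Each pair of a carnitine and a control pool still gave more members above 0 than below. Carnitine pool 1 exceeded control pool 1 for 26 of 42 members (49.0% of all genes) and control pool 2 for 28 (49.4% of all genes), with medians of 0.10 and 0.11. Carnitine pool 2 exceeded control pool 1 for 31 (50.5% of all genes) and control pool 2 for 34 (50.7% of all genes), with medians of 0.25 and 0.28. These pairs share their pools and are not separate pieces of evidence. In the assembly class all 4 members were higher in every pair, whereas the median of the 20S core was -0.020 and 0.0083 for carnitine pool 1 against control pools 1 and 2, and 0.15 and 0.24 for carnitine pool 2.

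Of the 42 members, 30 kept the sign of their log2 fold change whichever pool was left out. The same share over all genes was not computed. A gene whose pools do not overlap between the diets keeps its sign by construction. Such genes were 20 members higher and 4 lower with carnitine, against 21.5% and 21.0% of all genes. All 4 of the immunoproteasome class and all 4 assembly chaperones are among them, so their stable sign adds nothing to the lack of overlap. The median over the members ran from 0.10 with carnitine pool 2 left out to 0.23 with carnitine pool 1 left out, and for the 20S core it was -0.0001 without carnitine pool 2. The number of members with an unadjusted p under 0.05 was 3 from all pools and depended on which pool was left out. Counts are not given for those fits, since they leave 1 diet with a single pool. PSMD14 was at 0.79 without carnitine pool 2, at 0.75 without control pool 1 and at 1.31 without control pool 2. PSMD1 was at 0.43 without control pool 2 and at 1.21 without control pool 1.

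**Figure D4:**
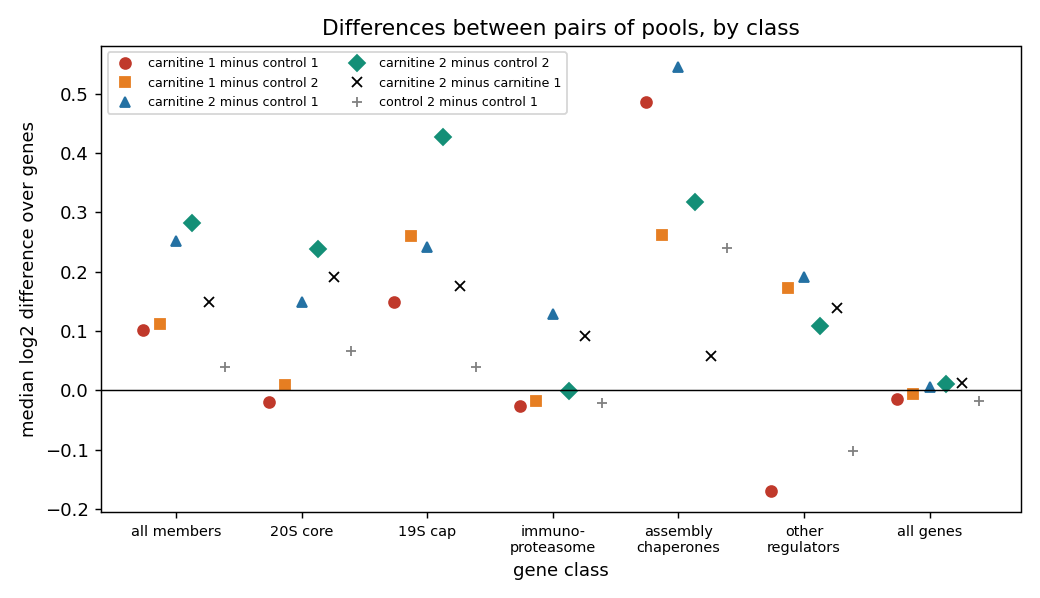
Median over genes of the log2 difference (vertical axis) between 2 pools, for the members, each class and all 6765 genes (horizontal axis), with filled symbols for carnitine minus control pools, crosses for carnitine pool 2 minus carnitine pool 1 and plus signs for control pool 2 minus control pool 1. Over all members the 4 carnitine minus control medians run from 0.10 to 0.28 and the cross lies at 0.15, while all 6 symbols for all genes lie near 0.

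All 42 members gave signals above the median of the array, the lowest being PSME3 at the 60.4th percentile, with SEs of the log2 fold change from 0.18 to 0.42. The median SE was 0.21 for the members, 0.29 for all genes and 0.25 for the genes above the median signal. Of the 42 genes, 36 had 1 probe set and 6 had several. For PSMD11 the probe sets disagreed, since its bright one was level while the dim ones, at signals of 6.7 to 69.4, gave -1.17 and -2.53 (SEs 0.76 and 0.71). The dim probe set of PSMF1 gave -0.054 with an SE of 1.14.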

How the data were processed

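Liver RNA was measured on 4 Affymetrix porcine arrays, 2 pools per diet. The authors deposited MAS5 signal intensities on a linear scale, 1 value per probe set, and the submitters' processing notes name the Expression Console 1.1, GCOS 1.1.2 and the algorithm MAS5 5.0. Detection calls were not used here. The array holds 24123 probe sets, from which 124 controls of the manufacturer were removed. For the other 23999 the log2 signal, without a pseudocount, was fitted by diet in limma 3.58.1 (R 4.3.3; eBayes with its trend option), and p-values were adjusted over all of them by the Benjamini-Hochberg method. Fits were checked on simulated data. Symbols came from the array annotation, which can be old: 10069 probe sets have 1 symbol, 198 several and 13732 none. No sequences were used, and no coordinates are given because the annotation names no build.

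The members, the gene lists and the tests were chosen with earlier results of these data known, so no list was tested as a set. Values are given for every member with an unadjusted p under 0.05, for the catalytic subunits, ubiquitin receptors, activators, inhibitor and VCP genes, for the extremes of each class, and for up to 4 genes of each partner list by smallest p. Other members are named with their log2 fold change. PSMD6, PSMD12, PSMC5, PSMA4, PSMA5, PSMG3, PSMD5 and PSMC2 are also shown by pool, which was chosen after their values were seen, and B2M, UBB and RPS27A were added after their values were seen. The alternatives were quantile normalization, centring on the array median, a floor at the 25th percentile, an offset of 64, a filter at the median signal, eBayes without a trend, a one-factor analysis of variance as named in the methods, a replicate block, the mean over or the dimmest of a gene's probe sets, and leaving out each pool. Arrays have no depth, and their number limits the precision.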

Additional observations from a re-analysis of the deposited data

How the results depend on the processing

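The labels do not say whether the replicate numbers pair the pools. The deviations of same-numbered pools correlated at r = 0.0032 across bright probe sets. No shared shift was seen, but this value cannot settle whether the pools were paired. With the number as a replicate block 106 probe sets passed the adjusted p, against 1 without it, and 0 members passed in either fit. No member passed under any alternative that was run. Over all probe sets the number was 2 with the floor, 3 with the filter on dim signals, and 0 with eBayes without a trend, with the analysis of variance and with the mean over probe sets. The 3 members at an unadjusted p under 0.05 became 0 with eBayes without a trend and 0 to 8 with a pool left out. These are counts, and the genes behind them were not always the same 3. With the analysis of variance 2 members were higher at that p, and neither was PSMD14, PSMD1 or PSMD4. The p-values of these 3 genes in the analysis of variance were 0.11, 0.20 and 0.080. At an unadjusted p under 0.05, 1 member was lower with the analysis of variance (PSME1), with the mean over probe sets (PSMD11) and with the dimmest probe set. The number of members at 2-fold was 0 with the offset, 2 with the mean over and the dimmest of a gene's probe sets, and 0 to 2 with a pool left out. The median of the other regulators was 0.25 with the mean over probe sets. With a pool left out, the medians ran from 0.10 to 0.23 for all members, from -0.0001 to 0.22 for the 20S core, from 0.090 to 0.33 for the 19S cap, from -0.016 to 0.079 for the immunoproteasome, from 0.31 to 0.52 for the assembly chaperones and from 0.049 to 0.27 for the other regulators. The core turned without carnitine pool 2 and the immunoproteasome without carnitine pool 2 or control pool 1. Near 0, the log2 fold change of PSMC3 turned to 0.030 without carnitine pool 1 and 0.040 without control pool 2 (lowest value -0.19), that of PSMD2 to -0.053 without carnitine pool 2 and -0.28 without control pool 2 (highest 0.35), and that of UFD1 to -0.017 and -0.17 without the same pools (highest 0.42). PSMF1 was at -0.054 with its dimmest probe set. In the other alternatives, which kept all pools, 31 to 33 members were above 0, and 18 to 23 had both carnitine pools above both control pools. Fits with a pool left out assume that the lone pool varies like those of the other diet. Signal over background is not known without detection calls.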
